A study of Oryza sativa with 72 samples.

Results

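RNA sequencing libraries from rice leaves 6 days after rewatering were compared between plants that had been through a severe drought and plants that had never lost irrigation. They were chosen by title alone as the rehydration day 6 libraries, 12 of the 72 libraries of the time course. The treated group held 3 libraries of the latest fully expanded leaf and 3 of the second latest leaf of IR64, an indica cultivar, after 9 days of drought that began 14 days after sowing and 6 days of restored watering. The control group held 3 libraries of each leaf from IR64 plants of the same age that were kept irrigated throughout. Per the labels, germinated seeds were grown 1 to a pot in calcined clay fed with culture solution, in pots with an automatic water supply, and drought was imposed by raising the pots so that they drained. The labels do not say whether the libraries of a group come from different plants. Nor do they say whether same-numbered libraries of both leaves come from the same plant. Each p-value therefore refers to scatter between libraries, which may be partly technical. For the tests of single features, this scatter was estimated with the libraries of all 6 stages, not with those of day 6 alone. A leaf was defined by its rank when it was sampled, so the latest leaf of day 6 may be a leaf that was not yet expanded during the drought, and this was not tested.

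Drought makes leaf cells lose turgor, close stomata and switch on genes controlled by the hormone abscisic acid, while genes of photosynthesis and growth are commonly turned down. When water returns, turgor and photosynthesis recover within days in leaves that have survived, and the drought program is shut off. Some transcripts can stay changed after the plant looks recovered, which is why a late time point is compared with plants that were watered throughout.

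The count table gave no gene identifiers, so each feature is named here by its place in the table, no function can be attached to it, and the leaf identity of the libraries could not be checked against marker genes. Levels are in CPM, a feature's count relative to its library's total scaled with TMM factors and not corrected for transcript length, so they rank read abundance and not transcript number. The 12 libraries held 8170546 to 20229451 counts, and 3 counts, taken as the floor of detection, corresponded to 0.148 to 0.367 CPM. Of the 55986 lines of the table, 36652 had a count in at least 1 of the 12 libraries and 19334 had none. Latest leaf treated libraries held 9837790, 9756287 and 8170546 counts, against 16256100, 12795710 and 10843457 in the control libraries. Second latest leaf treated libraries held 19441017, 12252011 and 11835987 counts, against 20229451, 13649749 and 18018005 in the control libraries.

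On the first principal component, treated replicate 2 was the treated library nearest to the controls in both leaves. Pearson's r of log2 CPM was lowest between treated replicates 1 and 2, at 0.937 in the latest and 0.964 in the second latest leaf. It was 0.970 and 0.981 between replicates 1 and 3, and 0.962 and 0.979 between replicates 2 and 3. These correlations among treated libraries did not single out replicate 2, but those with the controls did. Against the latest leaf controls, r was 0.980 to 0.982 for treated replicate 2. It was 0.921 to 0.956 for replicate 1 and 0.957 to 0.9755 for replicate 3. Against the second latest leaf controls, r was 0.971 to 0.984 for treated replicate 2. There it was 0.935 to 0.970 for replicate 1 and 0.9545 to 0.978 for replicate 3. For the latest leaf the first principal component carried 60.4% of the variance of log2 CPM, with scores of 69.8, -26.6 and 27.7 for the treated libraries, against -6.99, -22.1 and -41.7 for the control libraries. Treated replicate 2 therefore fell among the controls, and treated replicate 1 lay farthest from them. For the second latest leaf the first component carried 54.8%, with scores of 52.7, -4.65 and 28.8 in treated libraries and -8.66, -19.5 and -48.6 in control libraries. There the groups did not overlap, and treated replicate 2 was again the treated library nearest to the controls. The replicate SD of log2 CPM, as a root mean square over features, came to 0.521 in treated and 0.328 in control latest leaves, and 0.394 in treated and 0.339 in control second latest leaves. Counts of calls are given with and without treated replicate 2.

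In the second latest leaf, the older of the sampled leaves, a small set of transcripts differed from the irrigated controls. Of 20950 features tested, 102 were called at an adjusted p under 0.05 (edgeR's quasi-likelihood test with Benjamini-Hochberg adjustment), which is 0.487% of those tested, with 50 higher and 52 lower in treated leaves. The features called higher were mostly abundant and changed modestly, with a median log2 fold change of 0.83 and a median level of 44.7 CPM. The features called lower were scarcer and changed more, with a median log2 fold change of -1.07 and a median level of 9.87 CPM. At least 2-fold changes were reached by 18 of the 50 higher and 29 of the 52 lower features. All 102 had treated and control libraries that did not overlap, which selection by a small p in these same libraries favours. Over all features tested, 11.9% lay wholly above and 12.2% wholly below the controls. Without a scaling factor for composition, on total counts, 257 features were called with 24 higher and 233 lower. That scaling moved the median log2 fold change of all features by -0.23 in this leaf and by -0.26 in the latest leaf, so every direction given here is relative to the typical feature.

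These calls depended on single libraries. Without control replicate 1, 59 features were called, and without control replicate 2 there was 1. None was called when control replicate 3 was left out, and none when treated replicate 1 or 3 was. In contrast, 360 were called without treated replicate 2, 237 of them higher and 123 lower. At an unadjusted p under 0.05, 2108, 2259 and 2734 features passed when control replicate 3, treated replicate 1 or treated replicate 3 was left out, against 3579 with every library. With DESeq2 450 features were called, 267 higher and 183 lower. With only the day 6 libraries of this leaf in the fit, none was called.

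The largest abundant rise was that of feature 4018, at 28.0, 21.1 and 19.3 CPM in the treated libraries, against 8.73, 5.17 and 4.36 CPM in the control libraries. All treated values were more than 2-fold above every control value, with a log2 fold change of 1.90 (SE 0.452, adjusted p = 0.049). Feature 25315 had 359.5, 197.7 and 289.8 CPM in treated leaves, against 160.9, 108.1 and 87.2 CPM in control leaves. Its log2 fold change was 1.25 (SE 0.288, adjusted p = 0.049), and treated replicate 2 was the lowest of the treated libraries.

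Feature 12051 had 95.1, 39.0 and 67.5 CPM in treated leaves, against 34.5, 22.5 and 17.5 CPM in control leaves, a log2 fold change of 1.44 (SE 0.340). Here the lowest treated library stood only just above the highest control. The same held for feature 14377, at 36.0, 11.7 and 29.5 CPM in treated leaves, against 11.0, 8.92 and 9.01 CPM in control leaves (log2 fold change 1.42, SE 0.334). Feature 18184 had 21.7, 11.2 and 13.9 CPM in treated leaves, against 7.65, 5.97 and 4.79 CPM in control leaves (log2 fold change 1.35, SE 0.298). Feature 34217 had 20.4, 8.62 and 15.3 CPM in treated leaves, against 6.89, 5.37 and 6.30 CPM in control leaves (log2 fold change 1.26, SE 0.267). In these 4 features, too, treated replicate 2 was the lowest treated library, and the adjusted p lay between 0.039 and 0.049.

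Among features called higher, the most abundant moved less in fold but were tighter between replicates. Feature 4525 had 951.0, 857.4 and 961.7 CPM in treated leaves, against 578.5, 473.0 and 418.0 CPM in control leaves, with a log2 fold change of 0.91 (SE 0.165, adjusted p = 0.029). Feature 32740 had 566.1, 391.9 and 499.6 CPM in treated leaves, against 359.0, 266.0 and 250.5 CPM in control leaves (log2 fold change 0.74, SE 0.153). Feature 22959 had 512.3, 386.1 and 489.7 CPM in treated leaves, against 292.8, 259.5 and 251.0 CPM in control leaves (log2 fold change 0.79, SE 0.131). Together the 50 features called higher took up 0.542 ± 0.0334% of all counts in treated and 0.373 ± 0.0258% in control second latest leaves (SD, n = 3 each), a description of the features that the call selected.

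The largest fall among features of at least 10 CPM was that of feature 11358, at 2.81, 3.67 and 2.54 CPM in treated leaves, against 26.1, 17.98 and 13.8 CPM in control leaves. Its log2 fold change was -2.68 (SE 0.626, adjusted p = 0.049), and its treated libraries lay close together. Feature 24396 had 4.54, 7.34 and 4.90 CPM in treated leaves, against 16.4, 11.5 and 39.0 CPM in control leaves, a log2 fold change of -2.01 (SE 0.386) with 1 control library well above the others. Feature 5214 had 3.70, 6.14 and 4.201 CPM in treated leaves, against 12.8, 17.0 and 16.2 CPM in control leaves (log2 fold change -1.71, SE 0.316). In all 3 features the highest treated library stayed below the lowest control library, as the rule for naming features required.

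Feature 29190 had 6.33, 9.09 and 7.18 CPM in treated leaves, against 16.4, 15.1 and 21.3 CPM in control leaves (log2 fold change -1.23, SE 0.286). Feature 5617 had 4.00, 7.18 and 3.94 CPM in treated leaves, against 11.4, 12.7 and 11.0 CPM in control leaves (log2 fold change -1.21, SE 0.238). Feature 38025 had 6.45, 13.1 and 9.01 CPM in treated leaves, against 19.7, 20.1 and 25.1 CPM in control leaves (log2 fold change -1.19, SE 0.280). Treated replicate 2 was the highest treated library in these 3 features, and so again the one nearest to the controls.

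The most abundant features called lower were tight in both groups. Feature 54689 had 34.6, 33.3 and 34.3 CPM in treated leaves, against 71.2, 75.8 and 65.4 CPM in control leaves (log2 fold change -1.06, SE 0.230, adjusted p = 0.042). Feature 10398 had 48.7, 62.4 and 51.8 CPM in treated leaves, against 85.2, 91.6 and 95.2 CPM in control leaves (log2 fold change -0.74, SE 0.134, adjusted p = 0.029). Feature 11118 had 34.99, 41.4 and 36.0 CPM in treated leaves, against 48.4, 50.9 and 59.1 CPM in control leaves (log2 fold change -0.50, SE 0.111, adjusted p = 0.046). All 18 features named in this leaf lost their call when control replicate 3 was left out, and likewise for treated replicates 1 and 3. Without control replicate 2 only 1 of the 18 kept its call, without control replicate 1 there were 11, and without treated replicate 2 all 18.

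**Figure D1:**
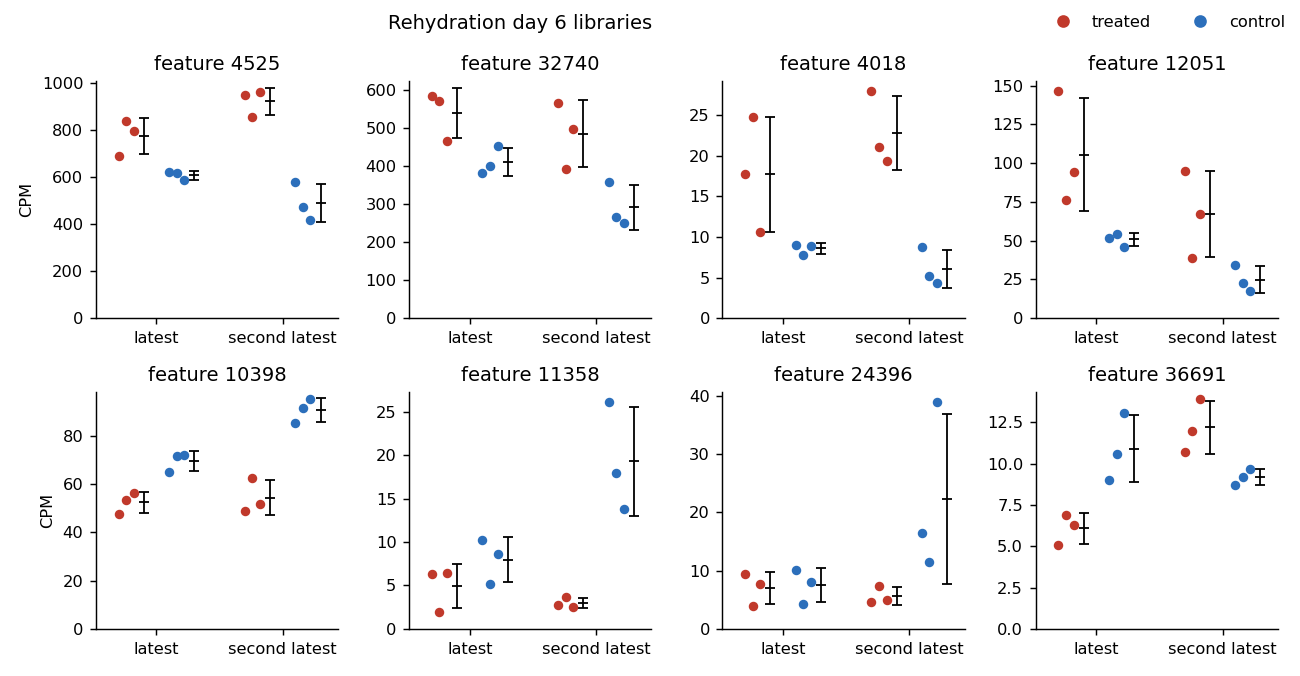
CPM of 8 features in each library of rehydration day 6, with treated libraries (red) left of control libraries (blue) within each leaf, and black bars for mean and SD (n = 3). In the second latest leaf the treated and control points of the first 7 features do not overlap, as the rule for naming them required. Feature 36691 has its treated points below the controls in the latest leaf and above them in the second latest leaf.

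A complete loss was seen in 1 feature, chosen after its values were seen. Feature 530 had no count in the 3 treated second latest leaf libraries, against 1.42, 1.61 and 6.97 CPM and 201 counts in the 3 control libraries, but it was not called (adjusted p = 0.154). No feature had at least 1 CPM in every treated library and none in the controls, in either leaf.

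In the latest leaf no transcript was called. Of 21037 features tested 0 passed an adjusted p under 0.05 (0%, edgeR's quasi-likelihood test with Benjamini-Hochberg adjustment), the smallest adjusted p was 0.169, and 2756 features passed an unadjusted p under 0.05, with 1714 higher and 1042 lower. With DESeq2 185 features were called, 182 higher and 3 lower. Without treated replicate 2, the library that lay among the controls, 1082 features were called, 757 higher and 325 lower. Leaving out any other day 6 library of this leaf gave 0 calls. Counts were also simulated for this design, with changes planted in 200 of 20963 features. The recovery rate of edgeR's test for these planted changes was 75% at 2-fold and 97% at 4-fold. Whether such rates hold when a treated library lies among the controls, as replicate 2 did here, was not tested. They therefore do not show how many real changes the 0 calls missed. At drought day 0, the start of the treatment, 193 features were called between treated and control latest leaves and 3334 passed an unadjusted p under 0.05, and in second latest leaves 0 were called and 2190 passed. Whether differences at day 6 include differences already present at drought day 0 was not tested.

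The features with the smallest p in the latest leaf are given as values, since none was called. Feature 788 had 49.7, 47.8 and 44.4 CPM in treated leaves, against 31.1, 35.5 and 34.0 CPM in control leaves (log2 fold change 0.50, SE 0.0968, adjusted p = 0.169). Feature 7438 had 357.7, 324.9 and 297.1 CPM in treated leaves, against 233.7, 241.9 and 209.4 CPM in control leaves (log2 fold change 0.52, SE 0.110). The libraries of both features formed separate ranges in this leaf and in the second latest leaf.

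Feature 52290 had 21.6, 9.44 and 16.5 CPM in treated latest leaves, against 7.45, 7.49 and 6.26 CPM in control latest leaves (log2 fold change 1.15, SE 0.246). Feature 12869 had 3.72, 10.3 and 4.99 CPM in treated leaves, against 18.3, 17.5 and 17.2 CPM in control leaves (log2 fold change -1.45, SE 0.326). Treated replicate 2 was in both features the treated library nearest to the controls. Feature 14389 had 16.1, 21.0 and 16.7 CPM in treated leaves, against 26.0, 27.5 and 27.8 CPM in control leaves (log2 fold change -0.59, SE 0.125). These features, together with feature 36691 described with the difference between the leaves, were called in the latest leaf when treated replicate 2 was left out, and with no other library left out.

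Set side by side, 63.9% of the 20514 features tested in both leaves had a log2 fold change of the same sign in both. Of the 50 features called higher in the second latest leaf, 46 had a positive log2 fold change in the latest leaf and 24 an unadjusted p under 0.05 there, with a median of 0.37. Of the 52 called lower, 51 were tested in the latest leaf, where 44 had a negative log2 fold change and 17 an unadjusted p under 0.05, with a median of -0.51. Over all features tested in the latest leaf, 49.0% were positive and 8.15% positive with an unadjusted p under 0.05, and 51.0% were negative and 4.95% negative with an unadjusted p under 0.05. The 50 features took up 0.507 ± 0.0771% of the latest leaf's counts in treated and 0.468 ± 0.0225% in control libraries, and all 52 called lower took up 0.0494 ± 0.00558% in treated and 0.0779 ± 0.00642% in control libraries (SD, n = 3 each). The share of the higher set overlapped between treated and control latest leaves, with 0.459, 0.596 and 0.465% in treated and 0.443, 0.484 and 0.478% in control libraries. The share of the lower set did not overlap.

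Across all 20514 features tested in both leaves, Pearson's r between the log2 fold changes was 0.315, and over the 10872 features with a mean of at least 10 CPM it was 0.566. The points of this description share the libraries, and possibly the plants, of each leaf, and genes are not independent replicates. Features whose treated and control libraries did not overlap numbered 484 above and 507 below the controls in both leaves (2.36% and 2.47% of 20514). Another 57 were above in the latest and below in the second latest leaf (0.278%), and 77 had the reverse (0.375%). Over all features tested in each leaf, 6.98% lay above and 9.05% below in the latest leaf. In the second latest leaf 11.9% lay above and 12.2% below. Of the 20514 features, 816 had an unadjusted p under 0.05 in both leaves, with 537 higher and 236 lower in treated plants in both. Over all features tested in the latest leaf, 13.1% passed that p, 1714 higher and 1042 lower. In the second latest leaf 17.1% passed it, 1890 higher and 1689 lower. When treated replicate 2 was left out of both leaves, 47 features were called higher in both, 6.21% of the latest leaf's calls and 19.8% of the second latest leaf's. In the same way 10 were called lower in both, 3.08% and 8.13% of the lists, and 0 in opposite directions. The lists of the latest and second latest leaf held 757 and 237 features called higher, and 325 and 123 called lower. With every library, 21037 and 20950 features were tested. Treated replicate 2 was left out after it was seen to lie nearest to the controls in both leaves, a choice that favours longer lists. Same-numbered leaves may also come from the same plant. The overlaps and their shared direction are therefore a description and no separate support. Whether these overlaps exceed those of unrelated lists was not tested.

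**Figure D2:**
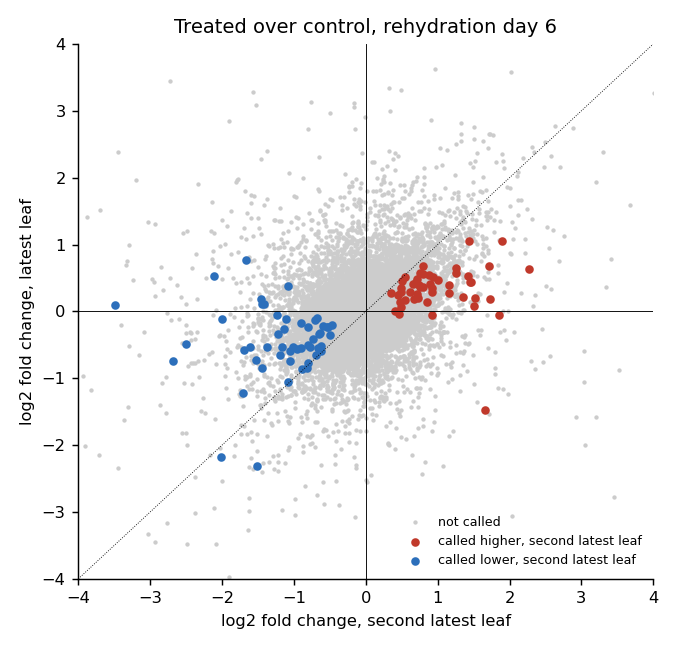
Log2 fold change (treated over control) at rehydration day 6 of each feature tested in both leaves, with the second latest leaf on the horizontal and the latest leaf on the vertical axis, both cut at 4 in either direction so that 31 features are not shown. Features called in the second latest leaf (red higher, blue lower) lie mostly on the same side of 0 in the latest leaf, but nearer to 0 than the dotted line of equal change.

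The lists of calls differed between the leaves, so the difference in response was tested itself. The test of the response in the latest minus that in the second latest leaf called 1 of 21824 features (0.00458%, edgeR's quasi-likelihood test with Benjamini-Hochberg adjustment), and 1435 passed an unadjusted p under 0.05. That feature, 36691, had 5.08, 6.86 and 6.30 CPM in treated latest leaves, against 9.02, 10.6 and 13.1 CPM in control latest leaves. Its second latest leaf levels were 10.7, 11.97 and 13.9 CPM in treated leaves, against 8.69, 9.19 and 9.67 CPM in control leaves. The groups did not overlap in either leaf and lay in opposite orders, with log2 fold changes of -0.83 (SE 0.171) and 0.40 (SE 0.158) and a difference of -1.24 (SE 0.230, adjusted p = 0.038). In neither leaf alone was it called, with adjusted p values of 0.169 and 0.186. The call of the difference was kept without latest leaf control replicate 1, latest leaf treated replicate 2 or second latest leaf treated replicate 1, with adjusted p values of 0.012, 0.010 and 0.023. It was lost without any 1 of the other 9 libraries, with adjusted p values of 0.066 to 0.579, while the difference itself stayed between -1.36 and -1.09. Without latest leaf treated replicate 2, 29 features were called for a difference between the leaves. In a simulation of the kind described above, this test found 50% of 2-fold and 87% of 4-fold changes.

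With the counts of same-numbered leaves added, so that each replicate number entered once, 27 of 23095 features were called (0.117%), 16 higher and 11 lower in treated plants. Among called features of the sum with at least 10 CPM in the higher group and no overlap between groups, the largest rise was that of feature 41134, at 68.8, 43.4 and 60.1 CPM in treated and 38.4, 32.0 and 31.4 CPM in control plants, with a log2 fold change of 0.76 (SE 0.143, adjusted p = 0.035). Feature 42924 had 228.3, 184.1 and 197.0 CPM in treated plants, against 138.6, 119.5 and 114.0 CPM in control plants (log2 fold change 0.71, SE 0.145), and feature 4525 followed with a log2 fold change of 0.67. Their treated and control ranges stayed apart in each leaf on its own as well.

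Under the same limits the largest fall was that of feature 10398, at 47.7, 57.9 and 52.8 CPM in treated plants, against 75.9, 82.2 and 85.0 CPM in control plants (log2 fold change -0.62, SE 0.117). Feature 43383 had 34.0, 30.2 and 30.3 CPM in treated plants, against 52.5, 47.2 and 43.1 CPM in control plants (log2 fold change -0.59, SE 0.123). Feature 11349 had 23.1, 23.9 and 23.3 CPM in treated plants, against 34.9, 37.0 and 32.8 CPM in control plants (log2 fold change -0.57, SE 0.101). Of these, feature 43383 overlapped between treated and control libraries in the latest leaf, at 37.0, 26.2 and 36.1 CPM in treated and 46.2, 36.8 and 33.2 CPM in control leaves. The count was 3 without control replicate 1, 114 without treated replicate 2, and 0 when any 1 of the other 4 replicates was left out. On total counts 14 features were called, 0 higher and 14 lower. Scarcer called features reached log2 fold changes of 3.798 and -3.21.

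The balance of higher and lower features differed with read abundance, although no feature of the most abundant class was called. Among features with a mean above 1000 CPM over the day 6 libraries of a leaf, 47 of 102 in the latest leaf and 34 of 98 in the second latest leaf had an unadjusted p under 0.05 with a higher level in treated leaves, and 0 with a lower one. Between 100 and 1000 CPM, 409 were higher and 16 lower of 1484 in the latest leaf at that p, and 346 were higher and 47 lower of 1593 in the second latest leaf. Between 10 and 100 CPM, 766 were higher and 463 lower of 9040 features in the latest leaf. Second latest leaf counts in that class were 920 higher and 681 lower of 9328. Between 1 and 10 CPM, 352 were higher and 437 lower of 7313 features in the latest leaf. Second latest leaf counts there were 479 higher and 723 lower of 7212. Under 1 CPM, 140 were higher and 126 lower of 3098 in the latest leaf, and 111 were higher and 238 lower of 2719 in the second latest leaf. The median log2 fold change above 1000 CPM was 0.35 in the latest and 0.32 in the second latest leaf, against -0.01 over all features in each, and on total counts the medians were 0.07 and 0.10. Without treated replicate 2 they were 0.49 and 0.39.

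A share of a library's counts needs no scaling factor. Features above 1000 CPM took up 37.8, 29.4 and 34.8% of the counts in treated latest leaves, against 30.6, 27.2 and 24.5% in control latest leaves. The groups overlapped, with 34.0 ± 4.26% in treated and 27.4 ± 3.08% in control libraries (SD, n = 3 each, exact permutation test, two-sided p = 0.2). The share was 32.7, 29.2 and 30.6% in treated second latest leaves, against 27.5, 25.6 and 22.7% in control second latest leaves. Those groups did not overlap, at 30.8 ± 1.80% in treated and 25.3 ± 2.45% in control libraries (SD, n = 3 each, exact permutation test, two-sided p = 0.1, the smallest that 3 against 3 can give). The TMM factors overlapped between the groups in the latest leaf, at 0.821, 1.08 and 0.933 in treated and 1.06, 1.13 and 1.21 in control libraries. In the second latest leaf they did not overlap, at 0.862, 1.02 and 0.966 in treated and 1.05, 1.09 and 1.17 in control libraries.

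Within this class 1 feature varied far more than the rest. Feature 3518, among the 5 most abundant over the 12 libraries and named after its values were seen, had 36510, 7477 and 22210 CPM in treated latest leaves, against 13930, 5585 and 1275 CPM in control latest leaves. Its second latest leaf levels were 22300, 8252 and 13550 CPM in treated leaves, against 4921, 4144 and 1091 CPM in control leaves. Same-numbered leaves ranked alike, replicate 1 highest and replicate 3 lowest of the controls, and treated replicate 2 lowest of the treated, and the feature was not called (adjusted p = 0.329 in the latest and 0.291 in the second latest leaf). Without it the class took up 32.0 ± 3.16% in treated and 26.7 ± 2.42% in control latest leaves, and 29.5 ± 1.26% in treated and 24.9 ± 2.25% in control second latest leaves (SD, n = 3 each).

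The other 4 of the 5 most abundant features differed less between the groups. Feature 46775 had 19080, 16340 and 19800 CPM in treated latest leaves, against 16770, 15010 and 15820 CPM in control latest leaves (log2 fold change 0.21, SE 0.259). Feature 1706 had 11120, 11070 and 11010 CPM in treated latest leaves, against 9687, 9457 and 9617 CPM in control latest leaves, the tightest of the 5 (log2 fold change 0.21, SE 0.191). Features 892 and 36 had log2 fold changes of -0.16 (SE 0.537) and 0.17 (SE 0.235) in the latest leaf, and 0.19 (SE 0.317) and -0.18 (SE 0.255) in the second latest leaf.

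**Figure D3:**
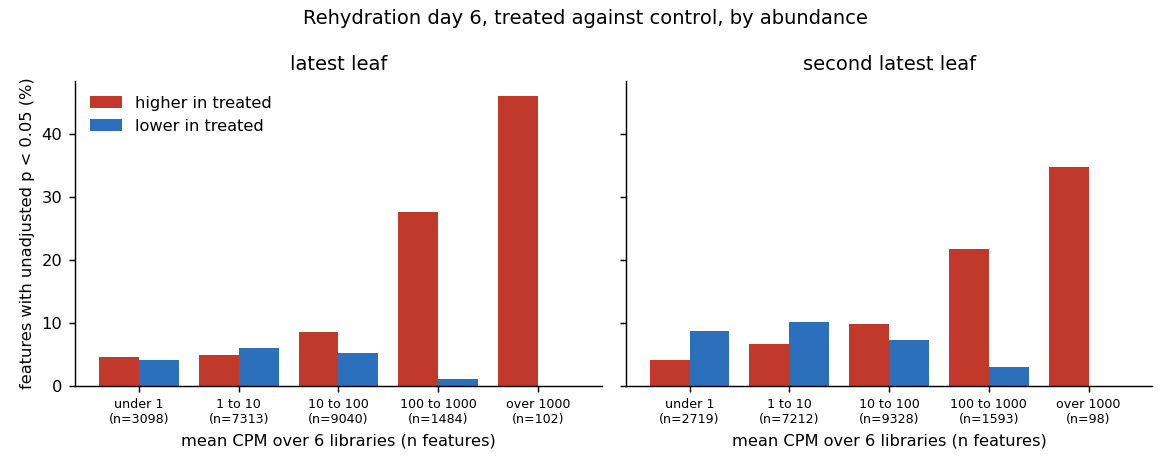
Percentage of features with an unadjusted p under 0.05 at rehydration day 6, by class of mean CPM over the 6 libraries of a leaf, as bars for features higher (red) and lower (blue) in treated leaves. Above 1000 CPM all such features are higher in treated leaves, 47 of 102 in the latest and 34 of 98 in the second latest leaf.

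The median of the abundant class was not of constant sign over the time course. The same features above 1000 CPM had median log2 fold changes (treated over control) in the latest leaf of -0.10 at drought day 0, -0.27 at drought day 6, -0.42 at drought day 9, -0.24 at 2 h after rewatering, 0.17 at day 3 and 0.35 at day 6. The second latest leaf's medians were -0.03, -0.32, -0.14, -0.20, 0.18 and 0.32 at the same stages. The medians were thus below 0 from drought day 0 to 2 h after rewatering, and above 0 at both later times. On total counts the drought day 0 medians were above 0, at 0.002 in the latest and 0.03 in the second latest leaf. From drought day 6 on, the total-count medians kept the signs, at -0.12, -0.14, -0.23, 0.08 and 0.07 in the latest leaf and -0.19, -0.07, -0.28, 0.11 and 0.10 in the second latest leaf. Each stage had its own treated and control libraries.

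The 102 features called in the second latest leaf were mostly on the same side of 0 at day 3. The day 3 libraries are not part of the day 6 contrast, but they entered the filter and the estimate of spread behind the calls, since each leaf was fitted over all stages. Of the 50 called higher, 45 had a positive log2 fold change at day 3 and 13 an unadjusted p under 0.05 with none in the opposite direction, and the median was 0.30. Of the 52 called lower, 46 were negative at day 3, 17 with an unadjusted p under 0.05 and none opposite, and the median was -0.27. Over all features in that leaf at day 3, 48.9% were positive and 3.08% positive with an unadjusted p under 0.05, and 51.1% were negative and 7.10% negative with an unadjusted p under 0.05. None of the 102 was called at day 3. At drought day 9 the medians were reversed in sign, at -0.20 for the features later called higher and 0.14 for those later called lower, with 15 of 50 positive (30.0%, against 51.7% of all features) and 19 of 52 negative (36.5%, against 48.3%). At 2 h the medians were -0.08 and -0.09. At drought day 0, 36 of the 50 were positive (72.0%, against 47.0% of all features), with a median of 0.13, and 32 of the 52 were negative (61.5%, against 53.0%), with a median of -0.06. In the latest leaf at drought day 0, 14 of the 50 were positive with an unadjusted p under 0.05 (28.0%, against 7.64% of all features), and 3 of them were called higher.

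**Figure D4:**
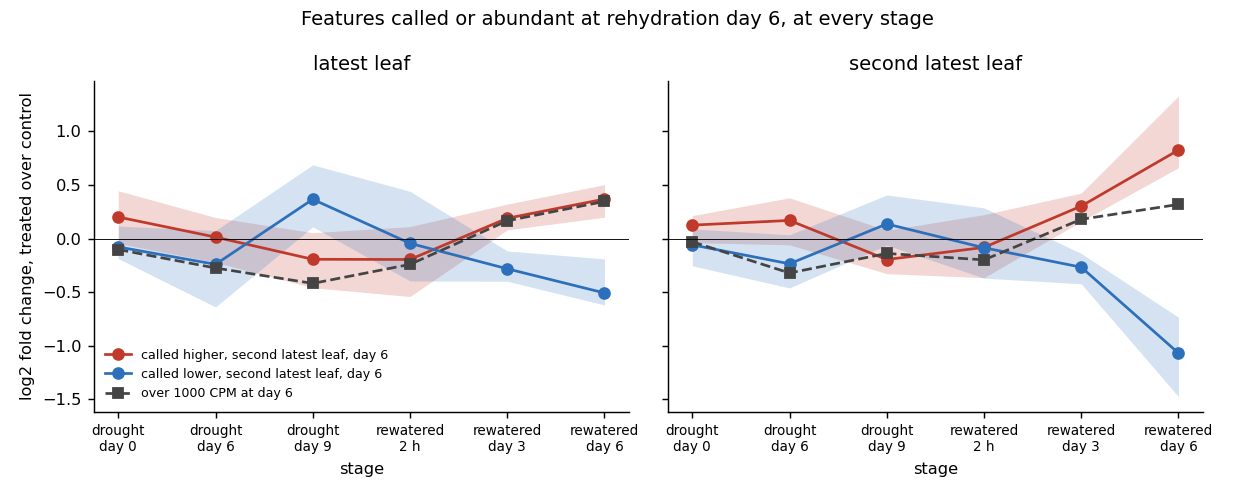
Median log2 fold change (treated over control) at the 6 stages in each leaf, for the features called higher (red) and lower (blue) in the second latest leaf at rehydration day 6, with the interquartile range shaded, and for features above 1000 CPM at day 6 (grey squares). The day 6 values of the red and blue lines in the second latest leaf are set by the choice of features, and at day 3 both lines lie on the same side of 0 as at day 6 in both leaves.

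The change of the response between day 3 and day 6 was tested directly and called no feature, 0 of 21037 in the latest leaf (0%) and 0 of 20950 in the second latest leaf (0%) by edgeR's quasi-likelihood test. At an unadjusted p under 0.05, 810 and 1074 features passed, and DESeq2 called 0 in each leaf. In simulations of the kind described above, these tests found 50% of 2-fold changes in the latest and 48% in the second latest leaf. Without treated day 3 replicate 2 of the second latest leaf, 2 features were called. The only feature called at day 3, 14956 in the second latest leaf, had a log2 fold change of -4.21 then (adjusted p = 0.007) and of -1.21 at day 6 (adjusted p = 0.601), on 5 counts in treated and 17 counts in control libraries at day 6.

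Between 2 h and day 6 the response changed broadly. In the latest leaf 2029 features were called for that change (9.64% of those tested), with the log2 fold change larger at day 6 in 869 and smaller in 1160. Among second latest leaf features 2672 were called (12.8%), larger at day 6 in 975 and smaller in 1697. On total counts the split was 350 larger and 1895 smaller in the latest leaf, and 443 larger and 2071 smaller in the second latest leaf. The latest leaf's count was 1305 without control day 6 replicate 2, 1245 without control day 6 replicate 3 and 1276 without treated day 6 replicate 3. It was 1168 without treated 2 h replicate 1 and 1239 without treated 2 h replicate 2.

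In the second latest leaf 23 features were called both at 2 h and at day 6, and 17 of the 23 had opposite directions. They were 0.517% of the 4448 called at 2 h, against 0.487% called at day 6 over all features, and 22.55% of the 102 called at day 6, against 21.2% called at 2 h over all features, so both shares were near the background. Latest leaf calls numbered 2749 at 2 h and 0 at day 6. The 6 features with the same direction at both times, singled out after their values were seen, were 34217 and 47922, higher, and 5617, 24190, 39809 and 52676, lower. Feature 47922 had 37.4, 28.7 and 32.6 CPM in treated leaves at day 6, against 19.1, 18.1 and 16.1 CPM in control leaves. Its log2 fold change was 0.89 at day 6 (SE 0.207, adjusted p = 0.049) and 0.84 at 2 h (SE 0.205, adjusted p = 0.004), with 0.34 at day 3 (adjusted p = 0.620). Feature 34217, described above, had 2.26 at 2 h (SE 0.268) and 1.26 at day 6. Feature 5617 had -1.61 at 2 h (SE 0.249) and -1.21 at day 6, and 0.03 at day 3. The other 3 were scarce, at 0.478 to 2.79 CPM in treated and 1.46 to 6.24 CPM in control libraries of day 6.

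Most features called at drought day 9 in the latest leaf had the opposite sign at rehydration day 6. Those calls rest on 2 treated libraries, since the third was nearly empty, and on controls that stood apart. Of 1234 features called higher at drought day 9, 292 were still positive at rehydration day 6, 14 with an unadjusted p under 0.05, while 149 were negative with such a p, and the median log2 fold change was -0.17 against 0.87 at drought day 9. Of 1435 called lower, 291 were still negative, 19 with an unadjusted p under 0.05, while 308 were positive with such a p, and the median was 0.27 against -1.15 at drought day 9. As no feature of this leaf was called at day 6, none of these lists could hold a call. The irrigated controls of drought day 9 had a Pearson's r of log2 CPM against the day 6 controls of this leaf of 0.884 to 0.937, against 0.937 to 0.986 for controls of the other 4 stages, and what part these controls had in the lists was not tested. Over all features in that leaf, 49.0% were positive and 51.0% negative. On total counts the medians were -0.43 for the list called higher and 0.004 for the list called lower, against -0.26 over all features, so how far the second list lay from 0 depended on the scaling.

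The displacement was not equal between libraries. The median of the 1435 features, as the difference of log2 CPM from the control mean, was 0.44, 0.003 and 0.29 in the treated latest leaf libraries, against 0.13, 0.003 and -0.14 in the control libraries. Treated replicate 2 lay within the control range and the other treated libraries above it. For the 1234 features called higher at drought day 9 the values were -0.26, -0.07 and -0.22 in treated libraries, against -0.07, 0.04 and 0.04 in control libraries, so treated replicate 2 lay near control replicate 1. Without treated replicate 2 the medians of the fitted log2 fold changes were 0.37 and -0.25.

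The drought day 9 lists of the second latest leaf lay nearer to 0 at rehydration day 6. The 256 features called higher at drought day 9 had a median of -0.12 at rehydration day 6, with 93 positive, and the 355 called lower had a median of 0.01, with 175 negative. Of 214 features called higher at drought day 6, 134 were still positive (62.6%, against 48.2% of all features) and 31 were positive with an unadjusted p under 0.05 (14.5%, against 9.02%), with a median of 0.12. The 157 called lower at drought day 6 had a median of -0.03, with 85 negative (54.1%, against 51.8% of all features). The drought day 6 lists of the latest leaf had medians of -0.12 for 532 called higher and 0.23 for 381 called lower. The difference between the leaves in these medians was not tested.

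**Figure D5:**
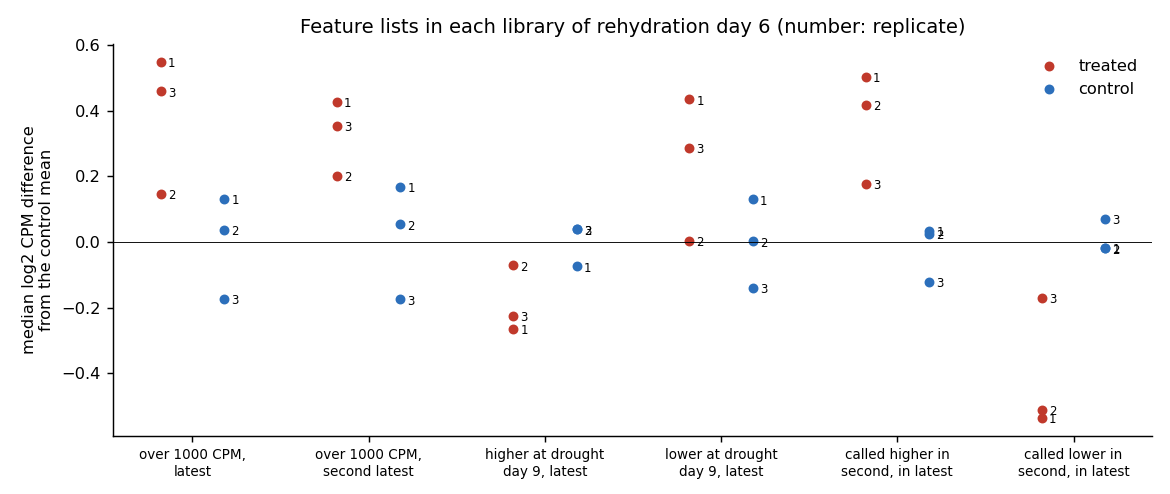
Median difference of log2 CPM from the control mean, in each library of rehydration day 6, for 6 lists of features, with treated libraries (red) left of control libraries (blue) and the replicate number beside each point. Treated replicate 2 is the treated library nearest to the controls in the first 4 lists, and in the last 2 lists treated replicate 3 is.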

How the data were processed

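The authors deposited raw read counts per feature for 72 libraries, with no normalisation. The submitters' processing notes name the aligner STAR, featureCounts version 2.0.0 for counting, and build IRGSP-1.0. Not given in the sources used here are the STAR version, annotation, strand setting and treatment of multiply mapped reads. Per the labels' protocols, libraries came from polyadenylated RNA with a directional kit.

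Counts were tested in R 4.3.3 with edgeR 4.0.16 (filterByExpr, TMM, the newer quasi-likelihood fit, Benjamini-Hochberg adjustment over all features tested). Each leaf was fitted over its 6 stages, and the leaf difference over both leaves. A library with 1755 counts, of drought day 9, was left out. A call is an adjusted p under 0.05. DESeq2 1.42.0 was an alternative, with other scalings, filters and left-out libraries. Settings added after seeing the data were total-count scaling, the older quasi-likelihood fit and leaving treated replicate 2 out of both leaves together.

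Features were named by rule: among called features of at least 10 CPM in the higher group whose groups did not overlap, the 6 largest rises, 6 largest falls and 3 most abundant of each direction per leaf, all called leaf differences, and the 3 largest of each direction in the sum. With fewer than 3 calls, the 3 of smallest p per direction were given. Lists and rules were chosen with earlier results of these data known. For the second latest leaf, the simulated counts held planted changes in 200 of 20736 features, drawn above the same minimum mean level. Their recovery rate was 78% at 2-fold and 99% at 4-fold. Replicates of a group differed beyond counting noise (chi-square per degree of freedom 7.82 to 82.0), and none were identical. Gene identifiers and sequences were not used here.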

Additional observations from a re-analysis of the deposited data

Results flagged for a closer look

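The response to treatment differed between the leaves in 1 feature by a test of the difference itself. In feature 36691 the response in the latest minus that in the second latest leaf was -1.24 on the log2 scale (SE 0.230, adjusted p = 0.038, edgeR's quasi-likelihood test). Treated libraries were below control libraries in 3 of 3 in the latest leaf and above them in 3 of 3 in the second latest leaf. With DESeq2 its adjusted p was 0.007, on total counts 0.346 and with only the day 6 libraries in the fit 0.557.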

How the results depend on the processing

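Under the settings run, no named feature's day 6 value and none of the 6 day 6 list medians given here changed sign, but the counts of calls moved widely. At drought day 0 the medians of features above 1000 CPM did change sign, from below 0 to 0.002 in the latest and 0.03 in the second latest leaf on total counts. In the latest leaf, the 0 calls became 1 with only the libraries compared, 8 with both leaf positions in one fit and 185 with DESeq2, and 0 to 1082 with a replicate left out. In the second latest leaf, the 102 calls became 32 without a filter on low counts, 257 on total counts, 55 with the older quasi-likelihood fit, 0 with only the libraries compared (3739 at an unadjusted p under 0.05), 450 with DESeq2 and 342 with both leaf positions in one fit, and 0 to 360 with a replicate left out. The 27 calls of the summed leaves became 0, 14, 8, 3 and 250 without a filter, on total counts, with the near-empty library kept, with only the libraries compared and with DESeq2, and 0 to 114 with a replicate left out. The 1 difference between leaves became 0 without a filter, on total counts or with only the libraries compared, 11 with DESeq2, and 0 to 29 with a replicate left out. The change since day 3 stayed at 0 in the latest leaf and reached 0 to 2 in the second latest leaf. The change since 2 h ranged over 1168 to 2739 and 1938 to 2508. On total counts the list medians moved to 0.0701 and 0.10 above 1000 CPM in the latest and second latest leaf. In the latest leaf they moved to -0.43 and 0.0039 for features called higher and lower at drought day 9, and 0.11 and -0.77 for those called higher and lower in the second latest leaf. With a replicate left out these 6 medians ranged over 0.28 to 0.49, 0.27 to 0.39, -0.25 to -0.13, 0.16 to 0.37, 0.30 to 0.45 and -0.49 to -0.34. The causes were not tested, beyond the fewer libraries of some settings.

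Whether replicate numbers pair the samples was read from the correlation of deviations from the group means. Treated and control libraries of the same number exceeded 0.1 in 1 of 3 pairs in each leaf (-0.06 to 0.40 and -0.19 to 0.30). The leaves of the same number did so in 2 of 3 treated pairs (0.09 to 0.54) and 3 of 3 control pairs (0.19 to 0.37), where 5 of 6 and 6 of 6 libraries correlated best with their own number. As the labels give no pairing and not every pair exceeded 0.1, the samples were treated as unpaired, and a pairing of the leaves by plant was not settled. With the number as a replicate block, calls were 0 in the latest leaf, 143 in the second latest leaf (89 higher, 54 lower), 29 in the sum, 0 and 0 for the change since day 3, and 1508 and 2415 for the change since 2 h. The difference between leaves gave 11, and 5 with only the day 6 libraries.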
